A study of Mus musculus with 6 samples.

Results

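The neural extracellular matrix genes described here are Ncan, Vcan, Bcan and Acan, which encode the lecticans neurocan, versican, brevican and aggrecan. They also include Cspg4, Cspg5 and Ptprz1, which encode chondroitin sulfate proteoglycans of the cell membrane, Tnc and Tnr, which encode tenascin-C and tenascin-R, and Hapln1, which encodes a link protein. They were chosen by name as a functional family, with earlier results of these data known. Their symbols were matched to Ensembl identifiers, so that these are 10 of the 50686 genes listed in the count files. RNASeq covered 2 cultures of NSC, neural stem cells from E16.5 mouse embryos labelled as wild type, and in 2 cultures labelled NSC Bmi1Over, whose genotype is given as STOPFloxBmi1;NestinCre. In the latter, a Bmi1 transgene is freed from a floxed stop cassette by Cre under the Nestin promoter, which is active in neural progenitors. Bmi1 is a subunit of Polycomb repressive complex 1. The repressive histone mark H3K27me3 was measured by ChIPSeq in 1 library of each condition. The cultures of a condition were biologically independent, per the methods. NSC were grown with EGF and FGF, either as spheres or attached, and which form gave the RNA is not given in the sources used here.

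In the matrix of the brain, lecticans bind the long polysaccharide hyaluronan at one end and tenascins at the other, and link proteins lock the bond to hyaluronan in place. Chondroitin sulfate chains attached to the core proteins bind growth factors and receptors, and this matrix surrounds stem cells in their niche, limits the growth of axons and is rebuilt as perineuronal nets when neurons mature. Tenascin-C and the phosphatase receptor Ptprz1 are typical products of radial glia and neural stem cells, whereas tenascin-R and the nets' main lectican, aggrecan, are known mainly from later oligodendrocytes and neurons.

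Counted reads ranged from 18112100 to 61353076 per library, so that only Acan and Hapln1 among these genes rested on few reads. Values are TMM-normalised CPM, the reads of a gene scaled to a common library size, and are given in the order NSC replicate 1, NSC replicate 2, NSC Bmi1Over replicate 1 and NSC Bmi1Over replicate 2. Bmi1 itself was at 133.3, 123.5, 118.6 and 112.6 CPM, with no higher level in the libraries labelled NSC Bmi1Over (log2 fold change −0.15 ± 0.12, SE; adjusted p = 0.463 by edgeR's quasi-likelihood test). The direction of every comparison below therefore rests on the labels. Counts of Bmi1 do not tell the transgene's reads from those of the endogenous gene. The share of reads that could not be mapped was 11.2%, 13.7%, 16.2% and 17.6%, and the 10 most abundant genes took 5.23%, 6.48%, 8.57% and 10.1% of the counted reads. Both shares rose in the same library order as the levels of 5 of the matrix genes below, and their part in those results was not tested. Among all 15521 genes tested, 334 (2.15%) were called at an adjusted p under 0.05, 315 of them (2.03%) with a higher and 19 with a lower level under the NSC Bmi1Over label. Scaled by library size alone, 537 genes were called, 346 of them higher, and the median of all genes on the log2 scale moved from −0.01 to −0.17.

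Of the 10 genes, 8 were strongly transcribed in every culture, whereas Acan and Hapln1 were close to the detection limit. Together the 10 genes took 0.845% and 0.967% of the counted reads in the NSC cultures and 0.926% and 1.11% in those labelled NSC Bmi1Over, which is between 167754 and 680049 reads per library. Their summed level was 7848, 9403, 9583 and 11901 CPM. Every one of the 8 abundant genes was lowest in NSC replicate 1 and highest in NSC Bmi1Over replicate 2, an order found for 22.9% of all genes tested. The genes differed among themselves, along with their spread, in whether the other 2 cultures, NSC replicate 2 and NSC Bmi1Over replicate 1, were also set apart.

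**Figure D1:**
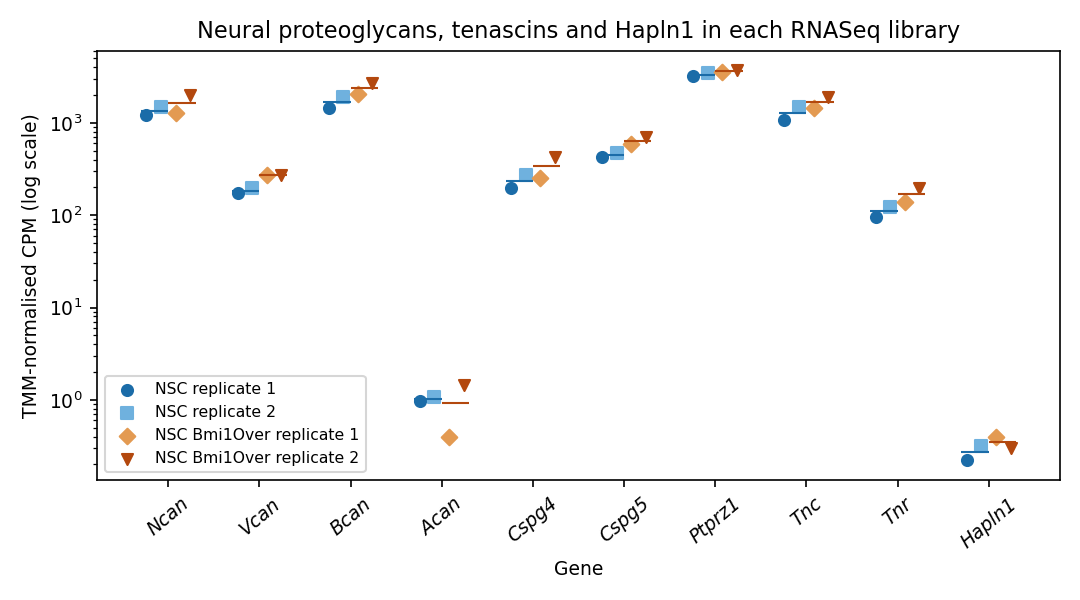
TMM-normalised CPM on a log scale for each of the 10 genes in the 4 RNASeq libraries, with a horizontal line at the mean of the 2 cultures of each group. The 8 abundant genes lie between 96.05 and 3710 CPM, and Acan and Hapln1 lie at or under 1.452 CPM.

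Between genes, levels were compared per kb of exon. Bcan was the most abundant, with a mean of 501 CPM per kb over the 4 libraries and a range from 359 to 670, which lay above 99.8% of the genes tested. Ptprz1 followed at 244 CPM per kb (range 224 to 260), Ncan at 208 (171 to 277) and Tnc at 190 (137 to 242). The ranges of Ptprz1 and Ncan overlapped, as did those of Ncan and Tnc, so that the order of these neighbours is not resolved. When the longest coding transcript was used for the length, Ptprz1 rose to 430 CPM per kb, Bcan to 649, and Tnc and Ncan exchanged places.

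A middle group held Cspg5 at 54.3 CPM per kb (42.6 to 68.8), Cspg4 at 23.9 (16.5 to 35.6), Vcan at 15.8 (12.1 to 18.9) and Tnr at 10.8 (7.46 to 15.4). The ranges of Cspg4 and Vcan overlapped, and so did those of Vcan and Tnr. Acan at 0.131 and Hapln1 at 0.0523 CPM per kb overlapped each other and were exceeded by nearly all genes tested, since 3.16% and 0.323% of these were lower.

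The composition of the group was followed as shares of its summed CPM per kb. Bcan, the brain's own lectican, supplied 37%, 39%, 41.2% and 42.2% in the 4 libraries, and Ptprz1 supplied 23.1%, 20.1%, 20.2% and 16.4%. Ncan held 17.6%, 17.1%, 14.4% and 17.4%, and Tnc 14.1%, 16.1%, 15.3% and 15.3%. These 4 genes made up most of the group in each library. The share of Bcan was highest and that of Ptprz1 lowest in NSC Bmi1Over replicate 2, and the shares of Ptprz1 in NSC replicate 2 and NSC Bmi1Over replicate 1 were nearly equal.

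**Figure D2:**
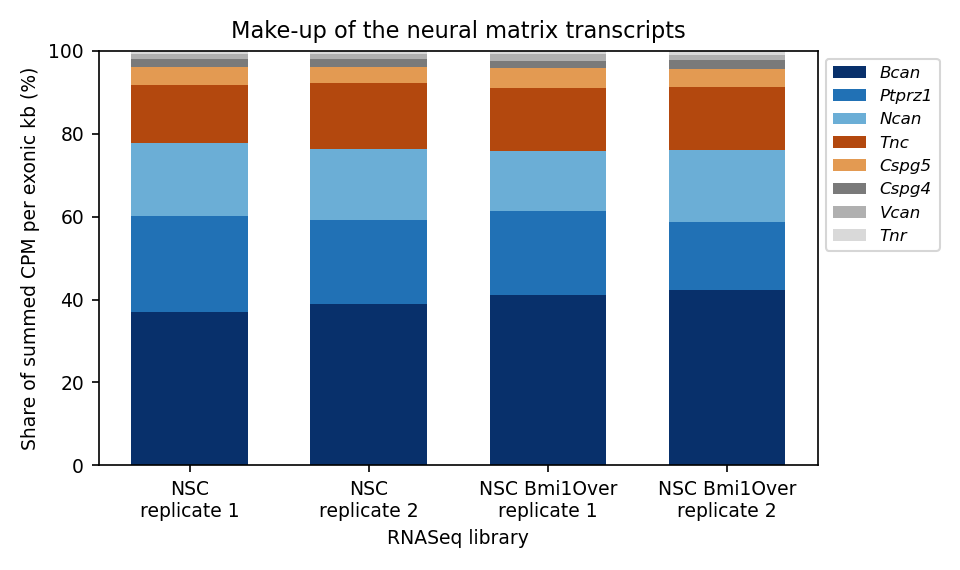
Share (%) of the summed CPM per exonic kb taken by each gene in each RNASeq library, with Acan and Hapln1 left out of the key as too low to see. Bcan takes between 37% and 42.2% of the bar in the 4 libraries.

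None of the 9 genes that passed the filter on low counts was called between the labelled groups at an adjusted p under 0.05, against 2.15% of all genes tested. At an unadjusted p under 0.05, 3 of the 9 passed in edgeR's test (Vcan, Cspg5 and Tnr), against 24.2% of all genes. DESeq2's Wald test called the same 3 genes, at adjusted p of 0.0042, 0.0138 and 0.023, and it called 9.64% of all genes. The fitted log2 fold change was above 0 for all 9, against 48.6% of all genes tested. This is a description, since the genes were chosen with earlier results of these data known. Under 7 of the 13 alternative settings the fold change stayed above 0 for all 9. The exceptions were Acan in 6 settings, Ncan in 1 and Ptprz1 in 1. The median over the 9 was 0.50 on the log2 scale, beside −0.01 over all genes, and it lay between 0.19 and 0.64 when 1 culture was left out. Both libraries labelled NSC Bmi1Over lay above both NSC libraries for Vcan, Bcan, Cspg5, Ptprz1 and Tnr, which is 5 of the 9 against 29% of all genes tested. In bulk RNA, fewer cells of a type and less RNA per cell cannot be told apart.

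The calls depended on the cultures kept, as well as on the test, the filter on low counts and a replicate term. A fit with a term for the replicate number called 6 of the matrix genes and 22.3% of all genes, though the labels give these numbers no shared origin. Without NSC Bmi1Over replicate 1, Vcan, Cspg4, Cspg5 and Tnr were called by edgeR's test (15.6% of all genes), and without NSC replicate 2, Cspg4 and Tnr were called (8.93%). Without NSC replicate 1 or without NSC Bmi1Over replicate 2, none was called (1.11% and 1.45% of all genes).

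**Figure D3:**
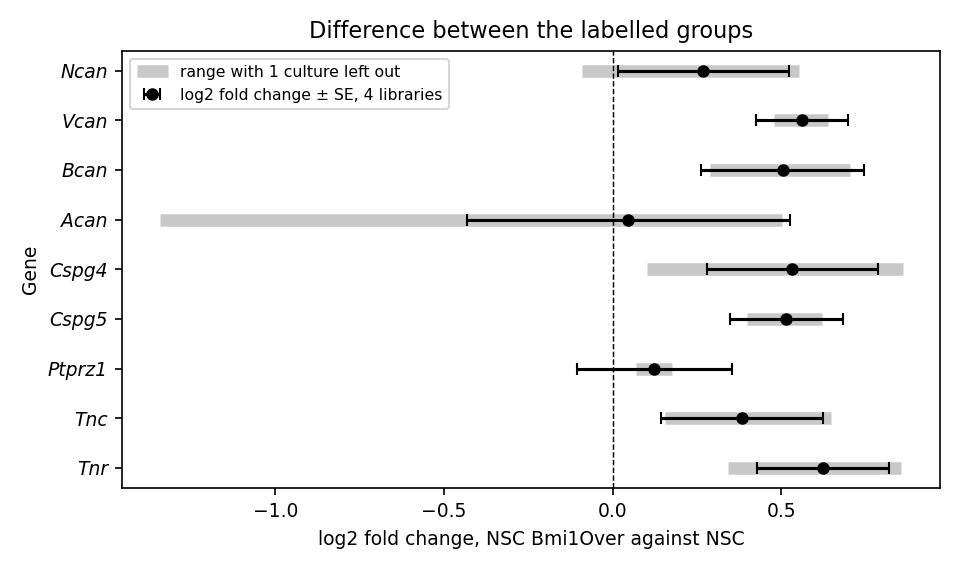
Fitted log2 fold change between the libraries labelled NSC Bmi1Over and NSC (x axis) for the 9 genes tested, with the SE as a bar and, in grey, the range of the fitted value when 1 culture was left out. The grey range reaches from −1.34 to 0.50 for Acan and from −0.09 to 0.55 for Ncan, and stays above 0 for the other genes.

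The lecticans were led by Bcan and Ncan. Ncan (chromosome 8, 70093085 to 70120873, mm10, minus strand), a lectican made mainly in the nervous system, was at 1229, 1481, 1272 and 1994 CPM, from 38791, 37452, 22266 and 113922 reads. NSC Bmi1Over replicate 1 lay between the NSC cultures and replicate 2 lay 1.57-fold above it, so the groups overlapped. The means were 1355 ± 178.4 CPM in NSC and 1633 ± 510.3 CPM under the NSC Bmi1Over label (SD, n = 2 each), with a log2 fold change of 0.27 ± 0.25 (SE; adjusted p = 0.531, edgeR). Without NSC Bmi1Over replicate 2 the fold change turned to −0.09.

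Bcan (chromosome 3, 87987531 to 88000230, minus strand), whose product is deposited around synapses and by glial precursors, was at 1460, 1909, 2058 and 2722 CPM. Both libraries labelled NSC Bmi1Over were higher than both of NSC, but the gap between NSC replicate 2 and NSC Bmi1Over replicate 1 was smaller than the gap within either group. The means were 1685 ± 317.3 and 2390 ± 469.5 CPM (SD, n = 2 each). The log2 fold change of 0.50 ± 0.24 (SE) did not pass (adjusted p = 0.243, edgeR). This value was 0.290 without NSC Bmi1Over replicate 2 and 0.705 without NSC replicate 2.

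Vcan (chromosome 13, 89655312 to 89742509, minus strand), the lectican most widespread outside the brain, was at 174.5, 195.4, 272.6 and 272.9 CPM. Here the 2 libraries labelled NSC Bmi1Over were nearly equal and stood clear of NSC. The means were 184.9 ± 14.78 and 272.8 ± 0.1612 CPM (SD, n = 2 each), a 1.48-fold difference and the smallest unadjusted p of the 10 genes (0.00307, edgeR). After adjustment over all genes the p was 0.0688, just short of the threshold, and the fitted log2 fold change of 0.56 ± 0.14 (SE) kept its direction in every alternative, from 0.41 to 0.64.

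Acan (chromosome 7, 79053483 to 79115099, plus strand) was at 0.9823, 1.068, 0.3999 and 1.452 CPM, from 31, 27, 7 and 83 reads. The 95% Poisson interval, which covers counting error only, was 0.161 to 0.824 CPM in NSC Bmi1Over replicate 1 and 1.16 to 1.8 in replicate 2. The 2 cultures of that label thus differed 3.63-fold, more than counting error gives. The intervals of NSC, 0.667 to 1.39 and 0.704 to 1.55 CPM, overlapped those of both, so their place on either side of NSC is not resolved. The log2 fold change of 0.05 ± 0.48 (SE; adjusted p = 0.962, edgeR) changed sign in 6 of the 13 alternatives and therefore carries no direction.

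Acan was also the single gene of the 10 with an H3K27me3 peak within 5 kb of an annotated transcription start site (TSS) in either peak list, where such a peak marked 8.89% of 22028 protein-coding genes in the NSC list and 4.44% in the NSC Bmi1Over list. The 250 bases before its RefSeq start are shown because they lay wholly inside an NSC peak and outside the peaks of the NSC Bmi1Over list. The same window of Bcan, the most abundant gene per kb, which had no peak in either list, is shown for contrast. Both are RefSeq sequences on GRCm38.p6, the build of mm10, written 5′ to 3′ with each CG in capitals. The Acan window is chr7:79052976-79053225 on the plus strand and ends upstream of the gene start in GENCODE. The Bcan window is chr3:88000357-88000606 on the minus strand.
Acan: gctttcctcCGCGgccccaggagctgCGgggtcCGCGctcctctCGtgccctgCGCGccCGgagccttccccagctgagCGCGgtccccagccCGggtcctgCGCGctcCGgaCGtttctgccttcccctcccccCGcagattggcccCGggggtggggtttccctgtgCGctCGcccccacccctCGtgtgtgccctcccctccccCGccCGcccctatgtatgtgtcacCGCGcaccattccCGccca
Bcan: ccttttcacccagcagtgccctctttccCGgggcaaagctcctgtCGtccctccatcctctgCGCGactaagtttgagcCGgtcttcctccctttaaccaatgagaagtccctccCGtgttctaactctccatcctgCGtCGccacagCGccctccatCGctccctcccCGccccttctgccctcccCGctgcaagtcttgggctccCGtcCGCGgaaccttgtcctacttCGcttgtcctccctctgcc
The Acan window held 26 CG, found by a search for the letters CG, which reads the same on both strands, at 74.4% GC. As many or more were present in 9.59% of 32851 RefSeq promoter windows of the same length, whose median was 6. The Bcan window held 16 CG at 62% GC, a number reached in 25.4% of windows.

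Of the 10 genes, 9 had a RefSeq promoter window, and Cspg5 had none. Dense CG was not particular to the marked gene, since the window of Ptprz1 held 22, reached in 14.8% of all windows, with no peak. Cspg4 held 12, Vcan 10, Tnc 8 and 10 at its 2 starts, and Ncan 6. Tnr and Hapln1 held 2 each, as many as or fewer than 81.2% of all windows. The Hapln1 window lay wholly inside annotated exons, downstream of the gene start in GENCODE, so its count is not that of the stretch before this start. The windows of Cspg4 and Ncan and 1 of the 2 of Tnc overlapped exons by 71, 29 and 79 bp.

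In the NSC list, Acan carried 3 peaks. The middle one covered 79052858 to 79054043 on chromosome 7, spanned the TSS from 625 bp before to 560 bp after it and was 1186 bp long, 4.92-fold enriched at a −log10 q of 4.51. One of 845 bp lay upstream (79051804 to 79052648, fold enrichment 4.92) and one of 435 bp downstream (79054701 to 79055135, fold enrichment 3.82). The NSC Bmi1Over list held 2 shorter peaks near the gene start, and neither spanned the TSS. One of 387 bp (79051037 to 79051423, fold enrichment 4.25) overlapped no NSC peak, and one of 200 bp (79054804 to 79055003, fold enrichment 5.72) lay inside the downstream NSC peak. The summed length was 2466 bp in the first list and 587 bp in the second. The NSC Bmi1Over list also marked fewer genes as a whole, as the shares of protein-coding genes given above show. The read totals in the supplementary methods reached further in NSC than in NSC Bmi1Over but are not tied to the libraries kept. Read number, quality scores and fingerprint plots were the stated grounds for discarding the weakest libraries. Depth and condition cannot be told apart in these lists. With 1 library per condition and peaks called separately in each, this difference has no replicate check, and its relation to the low and uneven RNA level was not tested.

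**Figure D4:**
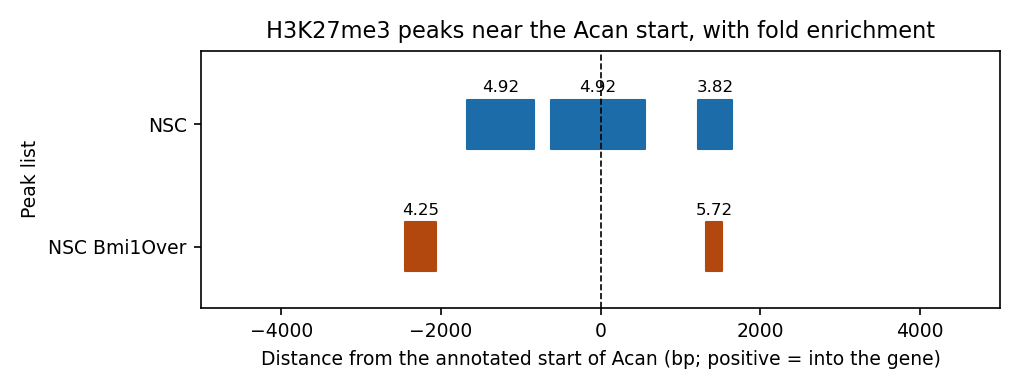
H3K27me3 peaks of the NSC and NSC Bmi1Over lists (rows) near the annotated start of Acan (dashed line), by distance from it in bp, with the fold enrichment above each peak. The NSC list has a peak of 1186 bp across the start and the NSC Bmi1Over list has none there.

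The other 9 genes had no peak at a promoter or over the gene body in either list. The nearest peak to Cspg5 lay 37378 bp away in the NSC list and 37504 bp in the NSC Bmi1Over list, and that to Cspg4 66926 and 66401 bp. For the remaining genes the nearest peak was over 100 kb away in both lists, as for Bcan at 172864 and 201725 bp. Hapln1, although nearly silent, was among these, with its nearest peaks 2591337 and 4300749 bp away.

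Among the membrane proteoglycans, Ptprz1 was the most even and Cspg4 the most uneven. Ptprz1 (chromosome 6, 22875502 to 23052916), a receptor tyrosine phosphatase that also carries chondroitin sulfate and binds pleiotrophin and tenascins, was at 3196, 3448, 3532 and 3710 CPM. The highest library was 1.16-fold above the lowest, and although the groups did not overlap, the gap between them was smaller than the gap within either. The log2 fold change was 0.12 ± 0.23 (SE; adjusted p = 0.758, edgeR), and it was −0.02 when libraries were scaled by size alone.

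Cspg5 (chromosome 9, 110243783 to 110262576), encoding neuroglycan C, a neural membrane proteoglycan with an EGF-like domain, was at 428.7, 471.8, 592.9 and 693.6 CPM. The groups stood apart, with means of 450.3 ± 30.48 and 643.2 ± 71.2 CPM (SD, n = 2 each) and a 1.43-fold difference. The log2 fold change was 0.51 ± 0.17 (SE; adjusted p = 0.115, edgeR) and lay between 0.37 and 0.62 in the alternatives.

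Cspg4 (chromosome 9, 56865033 to 56899870), encoding NG2, the surface marker of oligodendrocyte precursors and pericytes, was at 197.1, 269.8, 250.3 and 424.5 CPM. NSC Bmi1Over replicate 1 lay within the range of NSC and replicate 2 was 1.7-fold above it. The means were 233.5 ± 51.4 and 337.4 ± 123.1 CPM (SD, n = 2 each), and the log2 fold change of 0.53 ± 0.25 (SE; adjusted p = 0.239, edgeR) fell to 0.10 without NSC Bmi1Over replicate 2 and rose to 0.86 without replicate 1.

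Other genes of oligodendrocyte precursors split these same 2 cultures further. Gpr17, a receptor of precursors committed to differentiate, was at 4.436, 5.142, 0.7426 and 22.14 CPM, from 140, 130, 13 and 1265 reads. The 2 cultures labelled NSC Bmi1Over differed 29.8-fold, a size that rests on the 13 reads of replicate 1. Sox10, a transcription factor of the oligodendrocyte lineage, was at 2.503, 1.582, 0.2856 and 4.637 CPM, from 79, 40, 5 and 265 reads. Pdgfra, the growth factor receptor of the precursors, was at 27.85, 34.37, 16.45 and 44.48 CPM. These genes were singled out after their values were seen. All 3 had the order of Acan at the extremes, lowest in NSC Bmi1Over replicate 1 and highest in replicate 2, with NSC between. The other 3 listed genes of this lineage did not share that order, as Olig1 was at 1419, 1364, 1284 and 1020 CPM and Olig2 and Nkx2-2 were slightly lower in replicate 2 than in replicate 1. The summed level of the 6 listed precursor genes was 2298, 2354, 2329 and 2092 CPM, and none of them was called. The part of these cells in the levels of Cspg4, Acan and the other matrix genes was not tested.

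Both tenascins were lowest in NSC replicate 1. Tnc (chromosome 4, 63959785 to 64047015), an adhesion-modulating glycoprotein of the stem cell niche, was at 1065, 1502, 1465 and 1884 CPM. NSC replicate 2 was above NSC Bmi1Over replicate 1, and the cultures of NSC alone differed 1.41-fold, more than the 1.3-fold between the group means of 1284 ± 309.1 and 1675 ± 296.2 CPM (SD, n = 2 each). The log2 fold change was 0.38 ± 0.24 (SE; adjusted p = 0.348, edgeR). It was 0.155 without NSC replicate 1 and 0.648 without NSC replicate 2.

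Tnr (chromosome 1, 159523769 to 159931729), the tenascin that crosslinks lecticans in perineuronal nets, was at 96.05, 123.5, 138.8 and 198.7 CPM. The groups did not overlap, and the means of 109.8 ± 19.38 and 168.8 ± 42.38 CPM (SD, n = 2 each) gave the largest fold of the 10 genes, 1.54. The log2 fold change of 0.62 ± 0.20 (SE; adjusted p = 0.106, edgeR) ranged from 0.34 to 0.85 over the alternatives. An antisense gene overlaps 3.44% of the exon length of Tnr, and another gene 2.26% of that of Tnc, and reads in these stretches cannot be assigned without strand.

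The link protein gene Hapln1 (chromosome 13, 89539796 to 89611652) was at 0.2218, 0.3165, 0.3999 and 0.2975 CPM, from 7, 8, 7 and 17 reads, and was not tested. The 95% Poisson intervals of the 4 libraries all overlapped and none reached 1 CPM, so that no difference was detectable at this depth. The related link protein genes Hapln4, at 9.443, 11.08, 9.311 and 14.61 CPM, and Hapln3, at 1.775, 1.464, 1.885 and 2.432 CPM, passed the filter and were not called (adjusted p = 0.531 and 0.369, edgeR).

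Genes known to build, cut or bind this matrix were described from lists chosen with earlier results of these data known, so that their counts are a description. Of 76 listed genes 68 were tested, and 10 (14.7%) were called, all of them higher under the NSC Bmi1Over label, against 2.03% of all genes called higher. Of the 68, 64 had a log2 fold change above 0 and the median was 0.58, beside −0.01 over all genes. The number called changed with the culture left out, as did the shares of all genes given above. The median log2 fold change of the lists was 0.74 without NSC Bmi1Over replicate 1 and 0.70 without NSC replicate 2. It was 0.35 without NSC Bmi1Over replicate 2 and 0.42 without NSC replicate 1. DESeq2's Wald test called 33, against 9.64% of all genes. In edgeR's test of all libraries and in DESeq2's test no listed gene was called lower, against 0.122% and 1.25% of all genes. The summed CPM of 6 of the 7 lists, and the levels of 8 of the 10 called genes (all but Mmp2 and Hspg2), rose in the library order of the unmapped share (11.2%, 13.7%, 16.2% and 17.6%) and of the share of the 10 most abundant genes, whose part in these results was not tested.

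The enzymes that make the chondroitin sulfate chains had positive fold changes throughout, with 1 of 12 genes called and a median log2 fold change of 0.43. Chsy3, a synthase that extends the chain, rose from 5.704 and 8.386 to 13.65 and 17.6 CPM (log2 fold change 1.16 ± 0.23, SE; adjusted p = 0.0451, edgeR). Xylt1, which adds the first sugar to the core protein, was at 501.4 to 921.2 CPM and Chpf, a polymerising factor, at 131.3 to 259.7 CPM, and neither was called (adjusted p = 0.188 and 0.103, edgeR). Among the sulfation and epimerisation enzymes, 1 of 9 tested was called and the median was 0.68. Dse, the epimerase that turns chondroitin into dermatan sulfate, rose from 7.035 and 8.979 to 16.28 and 18.34 CPM (1.12 ± 0.18; adjusted p = 0.0338, edgeR). The sulfotransferase gene Chst7 had a log2 fold change of 0.81 (adjusted p = 0.0642) and Chst11 one of 0.33 (adjusted p = 0.407, edgeR). That of Chst11 was 0.000 without NSC Bmi1Over replicate 2 and 0.630 without NSC replicate 2.

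Of the hyaluronan genes, 1 of 5 was called, and the median was −0.08. Cd44, the main hyaluronan receptor, rose from 52.92 and 60.48 to 88.43 and 101.3 CPM (log2 fold change 0.74 ± 0.13, SE; adjusted p = 0.0397, edgeR). Hmmr, the other receptor, was level at 108.9, 109.7, 109.7 and 96.7 CPM. Of the other link proteins and tenascins, 2 of 5 were tested and neither was called.

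Among proteases and their inhibitors, 1 of 13 tested was called and the median was 0.63. Mmp2, a secreted metalloprotease, rose from 0.8556 and 0.9494 to 3.485 and 2.922 CPM, the largest change of the pathway genes named (1.81 ± 0.29, SE; adjusted p = 0.0316, edgeR). The inhibitor genes Timp4 and Timp2 had log2 fold changes of 0.25 and 0.54 and were not called (adjusted p = 0.315 and 0.13, edgeR). Their fold changes were 0.130 and 0.304 without NSC replicate 1, and 0.378 and 0.814 without NSC replicate 2.

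Of the binding partners and receptors, all 14 tested had a positive fold change, with 3 called and a median of 0.66. Itga9, an integrin subunit that binds tenascin-C, rose from 4.88 and 7.199 to 16.34 and 20.11 CPM (1.61 ± 0.22, SE; adjusted p = 0.0189, edgeR). Itga8, the subunit of another tenascin receptor, rose from 6.084 and 9.296 to 15.02 and 20.53 CPM (1.23 ± 0.24; adjusted p = 0.0451). Their partner Itgb1 was at 1089, 1398, 1856 and 2127 CPM, and did not pass (adjusted p = 0.111, edgeR).

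The growth factor Mdk (midkine), a ligand of Ptprz1, rose from 2.789 and 3.283 to 6.284 and 6.965 CPM (1.13 ± 0.22, SE; adjusted p = 0.0453, edgeR). Its relative Ptn (pleiotrophin) was at 2331, 3027, 3998 and 4504 CPM, with a log2 fold change of 0.67 ± 0.25 (SE) that did not pass (adjusted p = 0.155, edgeR). The receptor Ptprz1 thus had a log2 fold change of 0.12, under those of both ligands, and the difference between these fold changes was not tested.

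Of the other proteoglycans of the cell surface and matrix, 3 of 13 tested were called and the median was 0.63. Sdc2, a heparan sulfate proteoglycan of the membrane, rose from 53.27 and 58.35 to 106.2 and 113.9 CPM (0.98 ± 0.12, SE; adjusted p = 0.014, edgeR). Gpc4, a lipid-anchored one, rose from 51.56 and 63.65 to 97.45 and 123.0 CPM (0.94 ± 0.16; adjusted p = 0.037), and Hspg2, encoding perlecan of basement membranes, from 93.54 and 91.22 to 144.5 and 172.9 CPM (0.78 ± 0.14; adjusted p = 0.0374). Agrn and Sdc3, with the highest CPM of the list, had log2 fold changes of 0.61 and 0.44 and were not called (adjusted p = 0.146 and 0.182, edgeR). All 10 called genes had both libraries labelled NSC Bmi1Over above both of NSC, an order found for 29% of all genes tested. A call higher on the same libraries nearly fixes this order, so it adds no support. Itga9, Mmp2 and Sdc2 alone kept the call without each culture in turn, and the other 7 lost it without NSC replicate 1 (adjusted p from 0.0638 to 0.207, edgeR). Scaled by DESeq2's size factors, Chsy3, Mdk and Itga8 were no longer called (adjusted p = 0.0518, 0.0517 and 0.0525, edgeR), which left 7.

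**Figure D5:**
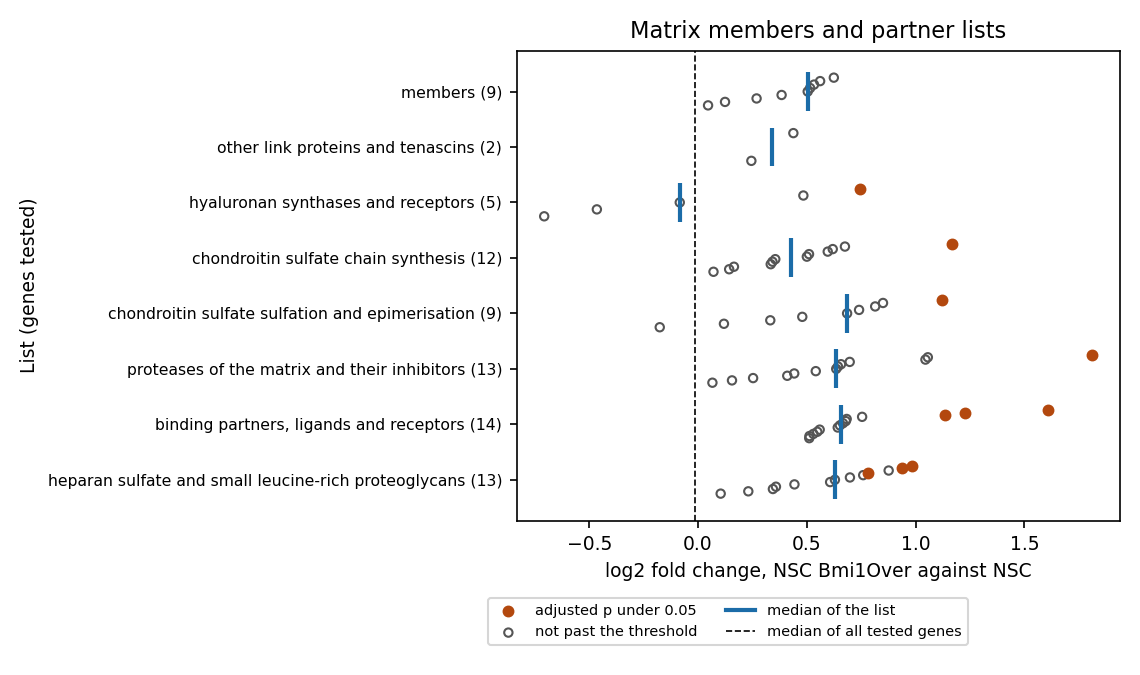
Fitted log2 fold change (x axis) of every tested gene of the neural matrix group and of the 7 pathway lists (rows, number tested in brackets), with a vertical bar at each list's median, a dashed line at the median of all genes and filled points for called genes. The 9 genes of the group lie between 0.05 and 0.62, and the 10 filled points, all in the pathway lists, lie between 0.74 and 1.81.

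At the promoters of the 76 pathway genes, the NSC list marked 9 and the NSC Bmi1Over list 4, against the 8.89% and 4.44% of all protein-coding genes. The 9 marked in NSC were Tnxb, Adamts8, Adamts20, Mmp9, Rtn4r, Cntn2, Gpc3, Gpc5 and Bgn, with a median of 1.22 CPM, not corrected for length, beside 52.5 CPM for those without a peak. None of the 9 exceeded a mean of 8.77 CPM, and none of the 10 called genes was among them. Adamts8, Adamts20, Mmp9 and Cntn2 were marked in both lists.

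The cultures expressed neural stem cell genes at a summed 4150, 4432, 4000 and 3628 CPM over 8 genes, of which the intermediate filament gene Vim had the highest CPM. None of the 8 was called, and their median log2 fold change was −0.21, beside 0.50 for the 9 matrix genes, with 2 of 8 above 0. Neuronal genes summed to between 926.2 and 1012 CPM, with Map2 at 788.3 to 919 CPM, and over the 6 genes the median log2 fold change was −0.14 with 2 above 0. One of these 2, the synaptic vesicle gene Syt1, rose from 9.126 and 27.22 to 66.49 and 95.85 CPM (log2 fold change 2.17 ± 0.41, SE; adjusted p = 0.0428, edgeR). Astrocyte genes summed to 2058, 2405, 2703 and 3212 CPM, and this order was that of 1 gene, Slc1a3, a glutamate transporter also made by radial glia, at 1839, 2228, 2533 and 3063 CPM. The other 5 astrocyte genes summed to 219.4, 177.1, 170.1 and 148.9 CPM, the reverse order, and over the 6 genes the median log2 fold change was −0.02 with 3 above 0. Aldh1l1 of this list fell by 0.86 on the log2 scale (adjusted p = 0.044, edgeR). Genes of mature oligodendrocytes summed to 100.7, 79.75, 55.7 and 60.55 CPM, of which Cnp fell by 0.74 (adjusted p = 0.0458, edgeR). These 3 calls were lost without NSC Bmi1Over replicate 2 (adjusted p from 0.0704 to 0.0897), and those of Aldh1l1 and Cnp also without NSC replicate 1 (0.124 and 0.344, edgeR). With DESeq2's size factors, Syt1 and Cnp were no longer called (adjusted p = 0.0517 and 0.0518, edgeR), and Cnp was not called with stranded sums either (0.0695) or with a minimum of 1 CPM in 2 libraries (0.05). The part of these cells in the matrix results was not tested. Genes of 3 other cell types were measured at low levels. The 5 microglial genes summed to 1.299, 1.859, 2.399 and 3.08 CPM, with 4 of them under 1 CPM in every library, and the 5 endothelial genes to 2.662, 3.877, 4.97 and 5.53 CPM, with 3 under 1 CPM. Both sums had the library order of 5 of the matrix genes, and the 3 genes tested, P2ry12, Kdr and Tek, had log2 fold changes of 0.82, 0.57 and 0.86 (adjusted p = 0.149, 0.249 and 0.183, edgeR). The 6 genes of pericytes and mesenchymal cells summed to 3.2, 2.215, 3.085 and 1.715 CPM. Their part in the matrix results was not tested.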

How the data were processed

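RNASeq was analysed from 2 NSC and 2 NSC Bmi1Over cultures and H3K27me3 ChIPSeq from 1 library of each. The mGIC were not analysed here. After trimming (Trim Galore) and alignment to mm10 (STAR), the authors deposited unstranded and stranded counts of reads per gene, before any biotype filtering. The unstranded counts were used. Reads that were unmapped, multimapped, in no gene or ambiguous stayed out of library sizes, which left between 65.9% and 72.2% of reads on genes. For ChIPSeq, the authors aligned with Bowtie2 2.3.4, kept 1 library of each condition and ran MACS2 on it in broad mode. In the deposited lists a peak has its enrichment as a fold (ratio), its p-value and q-value as −log10, and a display score, which was not used.

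Of 50686 identifiers, 50462 matched GENCODE vM21. Counts were filtered with filterByExpr (15521 genes), normalised by TMM and fitted with the quasi-likelihood test of edgeR 4.0.16 in R 4.3.3, without a replicate term. Benjamini-Hochberg adjustment covered all genes tested and calls were made under 0.05. The SE is the absolute log2 fold change over the root of F. The biological coefficient of variation was 12.9%. Replicates of each group differed beyond counting noise. Peaks and promoters were handled in Python 3.11.15, with a promoter within 5 kb of any annotated TSS. The steps were tested on simulated counts. The peak lists give no depth, and the read totals in the supplementary methods are ranges per condition that do not say which library was kept. Read number was among the stated grounds for discarding the weakest libraries.

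The genes and lists were chosen with earlier results of these data known. Named were the 10 genes, Bmi1, the called genes (at most 4, by largest fold change) and the 2 most abundant of each pathway list, and the called genes and the most abundant gene of each cell type list. Gpr17, Sox10, Pdgfra, Olig2, Nkx2-2, Tek and the marked pathway genes fall outside this rule. Alternatives were DESeq2 1.42.0 (test or size factors), library size alone, other filters, stranded sums, protein-coding genes only, a replicate block, thinning to 18112100 reads, leaving out each culture, stricter peak limits and the longest coding transcript. Protein sequences were not used here.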

Additional observations from a re-analysis of the deposited data

How the results depend on the processing

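No gene of the matrix group was called with DESeq2's size factors, library size alone, at least 1 CPM in 2 libraries, protein-coding genes only, stranded sums or thinned libraries. In that order, these settings called 1.57%, 3.46%, 2.1%, 2.34%, 1.96% and 2.13% of all genes. DESeq2's Wald test called 3 of the group, 33 of the pathway genes and 1496 of all genes. Without the filter on low counts, 4 of the group (Vcan, Cspg4, Cspg5 and Tnr), 37 of the pathway genes and 2356 of all genes (8.25%) were called. Library size alone gave 537 calls over all genes. The replicate block called 6 of the group (Vcan, Bcan, Cspg4, Cspg5, Tnc and Tnr), 46 of the pathway genes and 3459 of all genes (22.3%). The labels give no shared origin to the replicate numbers, and the deviations of same-numbered cultures from their group means correlated at 0.169 over 15521 genes, with 2 pairs, so that the numbers were not taken as pairing. Leaving out 1 culture gave from 0 to 4 calls in the group, 3 to 38 among the pathway genes and 176 to 2546 over all genes, where the lone culture of a group was assumed to vary like the other group. The cause of these differences was not tested.

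Acan turned to −0.059 with DESeq2's Wald test, −0.12 with library size alone, −0.15 with the replicate block, −0.23 with thinned libraries, and ranged from −1.34 to 0.50 with 1 culture left out. Ptprz1 turned to −0.024 with library size alone. With 1 culture left out, the log2 fold change ranged from −0.091 to 0.55 for Ncan, −0.14 to 0.51 for Hapln4, −0.18 to 0.006 for Hmmr, −0.19 to 0.033 for Map2 and −1.12 to 0.12 for the smooth muscle gene Acta2. A fold enrichment of at least 5 left 0 genes of the group marked in the NSC list and 1, Acan, in the NSC Bmi1Over list. Peaks of at least 1000 bp or a promoter window of 1 kb left 1 in the NSC list and 0 in the NSC Bmi1Over list. Of the 10 matrix genes, depth limits mainly Acan and Hapln1. Low marker genes such as Acta2, at 75, 29, 33 and 47 reads, also rest on few reads. Depth cannot be told apart from condition in the peak lists.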

Other observations

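The sum of the stranded columns exceeded the unstranded count by 7.34% to 8.12% for Tnc and by 4.49% to 7.03% for Tnr over the 4 libraries, whereas for the other matrix genes it differed by at most 0.0079%. Tnc and Tnr are the genes of the group that share exon sequence with a neighbouring gene in the annotation, of 176 bp for Tnc and 443 bp for Tnr. Log2 fold changes from the stranded sum kept the direction of the unstranded fit for all 9 genes tested.

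The median absolute log2 difference between the NSC cultures was 0.27 for the 9 matrix genes and 0.16 for all genes tested, and between the cultures labelled NSC Bmi1Over it was 0.40 and 0.23.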
